A study of Mus musculus with 4 samples.

Results

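The count table was searched for the genes of the microtubule itself and of the motors that walk on it. A gene was included if its symbol begins with Tuba, Tubb, Tubg, Tubd or Tube and a digit (tubulins), Kif and a digit (kinesin motors) or Klc and a digit (kinesin light chains). This rule uses names alone and no measured value. It found 39 of the 13825 genes of the table. Of these, 14 are tubulins and 23 are kinesin motors or light chains. The other 2 only share the name, since Kif1bp encodes a protein that binds kinesins and Tubb4b-ps1 is a processed pseudogene of Tubb4b. All 39 averaged at least 10 counts across the libraries and were among the 13084 genes tested.

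RNA was sequenced from tibialis anterior (TA) muscle, a fast-twitch muscle of the lower hind leg, of wild-type C57BL/6J (WT) mice and of mice that lack Fgf21 in every tissue (Fgf21KO), a gene for a hormone-like growth factor. Denervated muscle had lost its sciatic nerve supply, and sham muscle was its control. In WT mice the sham group is called WS and the denervated group WD, and in Fgf21KO mice they are called KS and KD, all collected on day 14. For each group the RNA of 4 muscles was pooled, so each group is 1 library and the spread between animals is not known. The methods of the study place the sham operation on the opposite limb of the same mouse, whereas the sample labels describe that leg as left untouched, and neither the age of these mice nor the strain background of the Fgf21KO mice was found in the sources used here. The targeted gene was not analysed here, which leaves the genotype labels without that check. The fast-muscle genes Myh1, Tnni2 and Mylpf had between 143366 and 641610 counts in each library.

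Microtubules are hollow tubes built from pairs of one alpha- and one beta-tubulin. Mammals carry several genes for each, and the proteins differ mostly in their tails, where enzymes add and remove modifying groups. Gamma-tubulin seeds new microtubules, while delta- and epsilon-tubulin belong to centrioles. In a muscle fibre the microtubules form a lattice beneath the membrane and around the nuclei, in place of the radial array of a dividing cell. Kinesins use ATP to walk along this lattice. Kinesin-1, a heavy chain with a light chain, carries mitochondria, vesicles and RNA and positions the nuclei of the fibre. Kinesin-2 and kinesin-3 move vesicles and other cargo, and a separate set of kinesins builds the mitotic spindle.

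Several tubulin genes are close copies of each other, and this bears on every value below. Tuba1a, Tuba1b and Tuba1c were the same at 98.0% to 98.9% of their first 1320 coding bases, pair by pair, with identical runs of up to 468 bases (GENCODE M21). Of all stretches of 50 bases in their longest transcripts, 72.9% of those of Tuba1a, 73.8% of Tuba1b and 61.0% of Tuba1c also occur in another gene. A short read from such a stretch could have come from any of these genes, and how the authors' counting treated such reads is not given in the sources used here. The shared portion was 49.6% in Tubb2a, 39.3% in Tubb2b, 50.9% in Tubb4b, 56.8% in Tubb4b-ps1 and 14.1% in Tubg1. It was at most 2.68% in the other members and 0 in Tubb6, and 0.181% in Tuba8. The 2 tubulins whose levels moved most thus share almost no stretch with another gene, while the separate values of the Tuba1 and Tubb2 genes are uncertain.

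Levels were compared between genes as RPKM, the scaled counts (CPM, scaled with edgeR's TMM factors) per kilobase of the longest transcript. Tuba4a, an alpha-tubulin of differentiated tissue, was the highest member in every library, at 280 RPKM in WS and 259 in WD, and 273 in KS and 284 in KD. Kif1c, a kinesin-3 vesicle motor, came next at 226, 157, 204 and 146 RPKM in the same order. Tubb4b was the highest beta-tubulin, at 112 to 122 RPKM. In sham muscle Tuba8, an alpha-tubulin typical of muscle and heart, followed with 102 RPKM in WS and 106 in KS, and then Kif1b, a motor for mitochondria and vesicles, with 73.9 and 75.2. After denervation Klc1 and Kif5b had taken these places in both genotypes, at 51.0 to 57.6 RPKM. At the other end, Kif5a, Kif20a, Kif21b, Kif22, Kif23, Kif11, Kif26b, Kif18a, Tube1 and Tubb4a stayed below 0.5 RPKM in all 4 libraries. With 1 library per group the spread of these levels is not known.

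**Figure D1:**
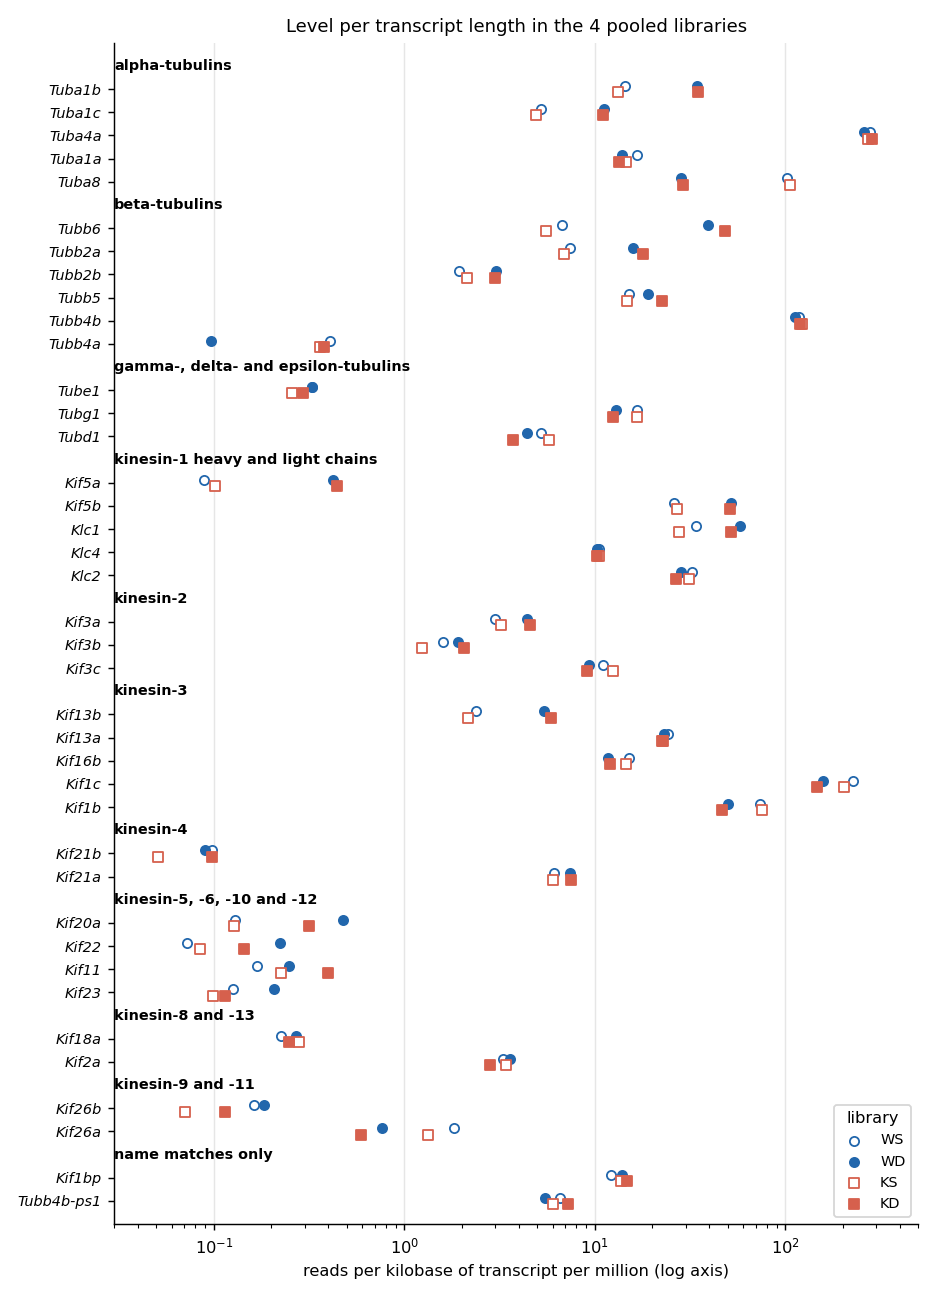
Level of each tubulin and kinesin gene in the 4 libraries, in RPKM on a log axis, grouped by family, with 1 point per library (WS, WD, KS, KD). Tubb6 lies at 5.57 and 6.75 in sham and at 39.5 and 48.1 in denervated muscle, Tuba8 moves the opposite way, and most other members keep their place.

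For the effect of denervation, WD was compared with WS and KD with KS. Each ratio compares 2 single libraries, so it has no test, and its 95% interval covers counting error only. A model with additive terms for genotype and surgery was then fitted to all 4 libraries to test denervation (edgeR's quasi-likelihood test, Benjamini-Hochberg adjustment over the 13084 genes), and a DEG is a gene with an adjusted p below 0.05 that changed at least 2-fold. In that model the genotypes serve as replicates of each other, with 1 residual degree of freedom. Denervation gave 9 DEGs among the 39 members, 7 higher and 2 lower. That is 23.1% of the members, beside 13.0% of all genes tested (6.80% higher, 6.15% lower). Without the fold limit 14 members rose and 9 fell, and 16 did not pass, beside 52.9% of all genes passing. By the ratio alone 11 members differed 2-fold or more between WD and WS, 8 higher and 3 lower, beside 14.8% of all genes (7.25% higher, 7.52% lower). Between KD and KS there were 9, 7 higher and 2 lower, beside 13.6% (7.52% higher, 6.07% lower). The median log2 ratio of the members was 0.165 and 0.180, and that of all genes 0.011 in both comparisons. Scaled by total counts alone, the median of all genes moved to 0.29 and 0.36 and the DEGs among the members to 11 higher and 1 lower, beside 13.0% higher and 2.48% lower of all genes.

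**Figure D2:**
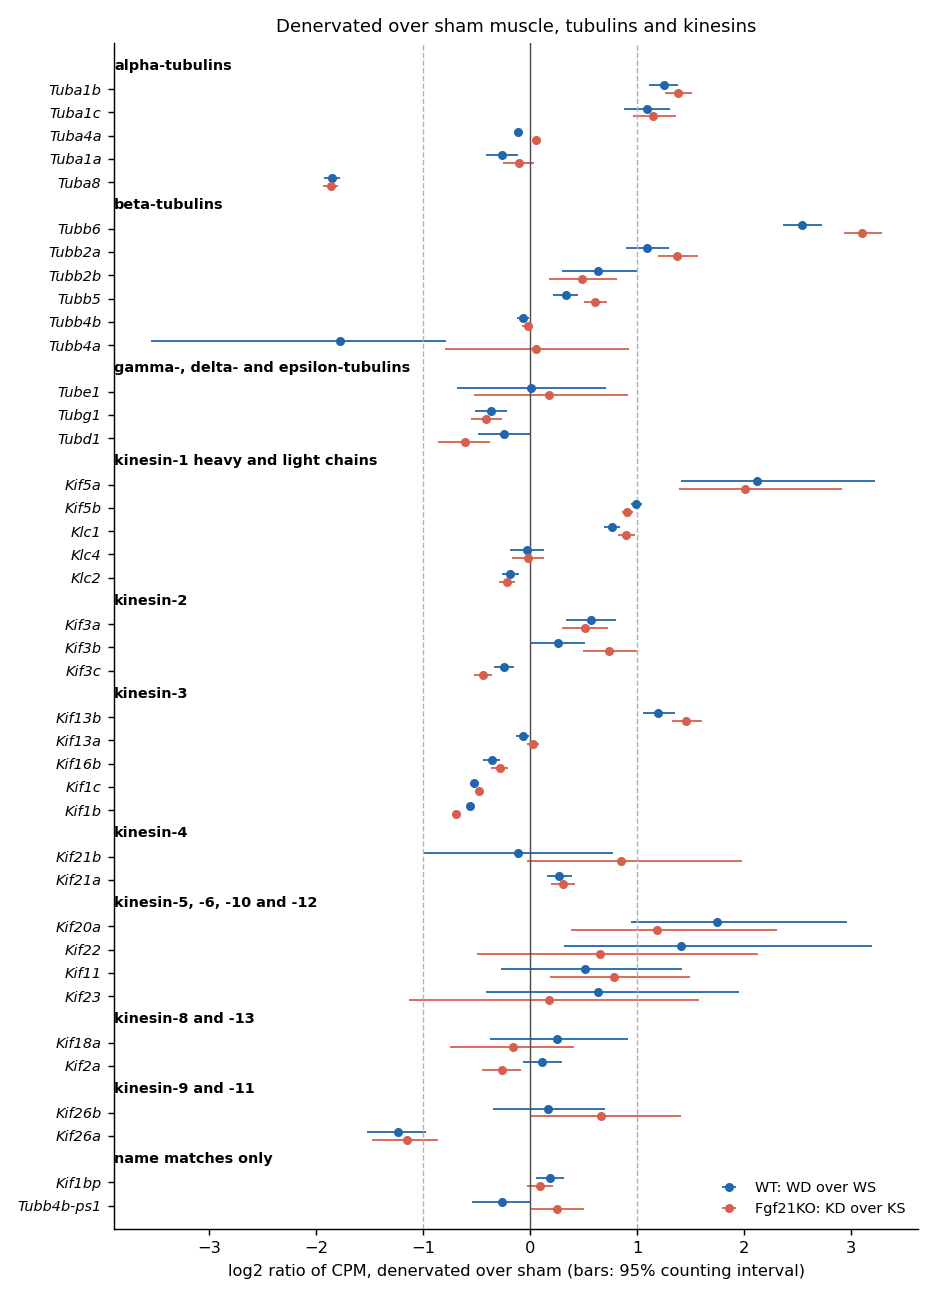
Log2 ratio of CPM, denervated over sham, for each member in WT (WD over WS) and Fgf21KO muscle (KD over KS), with 95% counting intervals as bars and dashed lines at 2-fold. Tubb6 (2.54 and 3.10) and Kif5a lie far to the right and Tuba8 (-1.85 and -1.86) to the left in both genotypes, and the wide bars belong to members with few reads.

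Among the 5 alpha-tubulins, Tuba1b and Tuba1c rose, Tuba8 fell, and Tuba4a and Tuba1a did not pass the test. Tuba8 had 5377 counts in WS and 2084 in WD, and 7094 in KS and 2028 in KD. In CPM both denervated libraries lay far below both sham libraries, at 63.9 (WD) and 65.6 (KD) beside 231 (WS) and 239 (KS). The log2 fold change was -1.86 (SE 0.0729, adjusted p 2.61e-14), and the 2 genotypes gave almost the same ratio, -1.85 (interval -1.93 to -1.78) and -1.86 (-1.94 to -1.79). Tuba4a had 18514 counts in WS and 24032 in WD, and 23033 in KS and 24950 in KD, a log2 fold change of -0.03 (adjusted p 0.791). Its ratio was -0.11 (-0.14 to -0.08) in WT and 0.06 (0.03 to 0.08) in Fgf21KO muscle.

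Tuba1a is the alpha-tubulin best known from developing neurons, and Tuba1b and Tuba1c are made in most cells, above all in dividing ones. Tuba1b had 583 counts in WS and 1944 in WD, and 690 in KS and 1882 in KD, with a log2 fold change of 1.32 (SE 0.0864, adjusted p 8.92e-11). Tuba1c had 242, 724, 291 and 676 counts and a log2 fold change of 1.13. For both genes each denervated library exceeded each sham library. Tuba1a had 699, 815, 775 and 748 counts and a log2 fold change of -0.19 (adjusted p 0.116), so the 3 copies did not move alike as counted. Since reads can be shared among them, they were also summed, an alternative chosen after the data were seen. The sum was 1524 counts in WS and 3483 in WD, and 1756 in KS and 3306 in KD, and it rose by 0.78 on the log2 scale (SE 0.0756, adjusted p 3.32e-08), or 1.72-fold, which is under the 2-fold limit.

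The make-up of the alpha-tubulin reads shifted accordingly. Tuba8 took 21.2% of them in WS (95% Wilson interval 20.7 to 21.7) and 7.04% in WD (6.75 to 7.34), and 22.3% in KS and 6.70% in KD. The 3 Tuba1 genes together went from 6.0% to 11.8% in WT and from 5.51% to 10.9% in Fgf21KO muscle. Tuba4a took most of the reads throughout, with 72.8% in WS and 81.2% in WD, and 72.2% in KS and 82.4% in KD. The intervals of sham and denervated libraries did not overlap for any of these, but they cover counting error only. The summed alpha-tubulin RPKM was 418.5 in WS and 347.0 in WD, and 411.2 in KS and 372.5 in KD. The log2 ratios were -0.27 and -0.14. By total counts alone those ratios were 0.01 and 0.21, so the total gave no direction that held under every scaling.

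**Figure D3:**
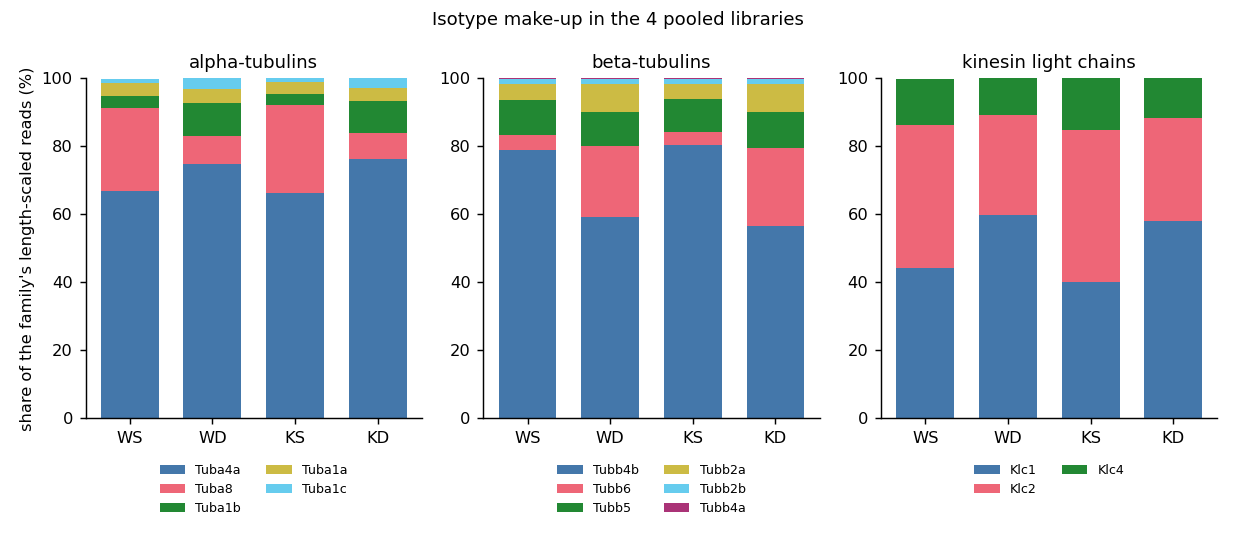
Percent of each family's length-scaled reads (reads per kilobase of the longest transcript) that belong to each gene, in WS, WD, KS and KD. The panels show alpha-tubulins, beta-tubulins and kinesin light chains. In WT the Tuba8 part shrinks from 24.4% to 8.14% and the Tubb6 part grows from 4.51% to 20.8%. Klc1 grows from 44.1% to 59.8% in WT and from 40.0% to 58.2% in Fgf21KO muscle. The percentages in the text are of reads, without length scaling.

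The windows of 250 bases before the start sites of Tuba1a, Tuba1b, Tuba1c and Tuba8 are printed because alpha-tubulins moved in opposite directions. Tuba4a is not among them. The sequences are from RefSeq on GRCm38.p6, 5′ to 3′ on the gene's strand. Capitals mark matches, on either strand, to the CCAAT box, to GGGCGG (a GC box), to TATAAA and to the E-box CANNTG, and neighbouring or overlapping matches run together.
Tuba1a, chr15:98953502-98953751, minus strand: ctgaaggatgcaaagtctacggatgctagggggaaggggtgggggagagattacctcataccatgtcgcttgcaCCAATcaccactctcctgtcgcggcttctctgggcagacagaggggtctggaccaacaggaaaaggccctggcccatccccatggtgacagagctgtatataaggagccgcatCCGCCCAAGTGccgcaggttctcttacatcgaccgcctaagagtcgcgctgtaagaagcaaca
Tuba1b, chr15:98934391-98934640, minus strand: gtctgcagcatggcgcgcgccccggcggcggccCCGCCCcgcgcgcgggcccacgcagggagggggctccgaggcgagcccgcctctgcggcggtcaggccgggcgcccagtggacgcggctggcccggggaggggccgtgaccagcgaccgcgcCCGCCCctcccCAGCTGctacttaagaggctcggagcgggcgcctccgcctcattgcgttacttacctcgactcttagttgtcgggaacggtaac
Tuba1c, chr15:99029641-99029890, plus strand: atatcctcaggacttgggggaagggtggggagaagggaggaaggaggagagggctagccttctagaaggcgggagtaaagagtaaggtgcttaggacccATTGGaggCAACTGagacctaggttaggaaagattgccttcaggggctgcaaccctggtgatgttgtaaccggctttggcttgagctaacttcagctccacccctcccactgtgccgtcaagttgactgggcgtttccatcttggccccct
Tuba8, chr6:121210484-121210733, plus strand: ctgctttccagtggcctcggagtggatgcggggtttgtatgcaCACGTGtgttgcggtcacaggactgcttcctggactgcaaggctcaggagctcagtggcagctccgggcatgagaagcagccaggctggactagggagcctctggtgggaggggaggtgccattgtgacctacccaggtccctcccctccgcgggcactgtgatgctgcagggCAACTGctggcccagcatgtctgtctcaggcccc
Tuba1b, which rose, has 2 GGGCGG matches in a window of 75.6% G and C, and Tuba8, which fell, has none in a window of 63.6%. Tuba1c, which also rose as counted, has none either, and Tuba1a has 1. Tuba1a and Tuba1c have 1 CCAAT match each. Tuba8 has 2 CANNTG matches, letters found in 66.2% of all 32851 such windows. Over the 30 windows of the 28 members with an entry, GGGCGG occurred in 76.7%, beside 32.7% of all windows, and CCAAT in 46.7%, beside 33.8%. TATAAA was in 3.33% and 12.4%, CAGCTG in 6.67% and 13.0%, and TGTGGT in 6.67% and 14.0%. TGANTCA, the MEF2 motif and the CArG motif were in no member window, and in 6.75%, 0.508% and 1.47% of all windows. These matches are a description of letters.

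Of the 6 beta-tubulins, 4 rose, 2 of them at least 2-fold, and none passed as lower. Tubb6, a beta-tubulin whose excess disturbs the microtubule lattice of muscle fibres, had 276 counts in WS and 2263 in WD, and 291 in KS and 2616 in KD. Both sham libraries lay at 9.80 and 11.9 CPM and both denervated libraries at 69.4 and 84.6. Its log2 fold change of 2.83 (SE 0.112, adjusted p 3.02e-14), or 7.14-fold, was the highest of the 39 members. The ratio was 2.54 (2.37 to 2.73) in WT and 3.10 (2.94 to 3.29) in Fgf21KO muscle, 0.56 apart (0.31 to 0.81 from counting error).

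Tubb2a and Tubb2b, close copies known best from neurons, had separate results. Tubb2a had 278 counts in WS and 832 in WD, and 330 in KS and 896 in KD, and rose by 1.24 on the log2 scale (SE 0.115). Tubb2b had 98, 215, 138 and 202 counts and rose by 0.57 (adjusted p 0.0148). Summed as 1 gene they rose by 1.08. Tubb5, a beta-tubulin of most cells, had 930, 1640, 1157 and 1833 counts and rose by 0.47 (SE 0.0867, adjusted p 0.000117). Tubb4b, the highest of the family, had 4388, 5860, 5799 and 5939 counts and a log2 fold change of -0.05 (adjusted p 0.603). Tubb4a, a neural beta-tubulin, had 21 counts in WS and 7 in WD, and 24 in KS and 26 in KD. The WD library stood apart here, with a ratio of -1.78 (-3.55 to -0.78) in WT and 0.05 (-0.80 to 0.92) in Fgf21KO muscle, and the gene did not pass the test (-0.77, adjusted p 0.198).

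Tubb6 took 4.61% of the beta-tubulin reads in WS (4.10 to 5.17), 20.9% in WD (20.2 to 21.7), 3.76% in KS and 22.7% in KD. Tubb4b went from 73.2% to 54.2% in WT and from 74.9% to 51.6% in Fgf21KO muscle, while Tubb5 stayed between 15.0% and 15.9%. Summed over the family the level was 149.6 RPKM in WS and 189.9 in WD, and 151.8 in KS and 212.1 in KD. The log2 ratios were 0.34 and 0.48 (0.62 and 0.83 by total counts alone).

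None of the 3 tubulins that do not form the wall of the microtubule was a DEG. Tubg1, the gamma-tubulin, had 699 counts in WS and 760 in WD, and 894 in KS and 699 in KD, and fell by 0.39 (adjusted p 0.00192). Tubd1 fell by 0.43 (adjusted p 0.0162), with ratios of -0.24 and -0.61. Tube1, with 32 to 45 counts, did not pass (0.10, adjusted p 0.834). By total counts alone the log2 fold changes of Tubg1 and Tubd1 were -0.07 and -0.11 and neither passed.

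Among the 5 kinesin-1 genes the heavy chains Kif5a and Kif5b and the light chain Klc1 rose, Klc2 fell and Klc4 did not pass. Kif5b, the heavy chain of most cells, had 3661 counts in WS and 10223 in WD, and 4864 in KS and 9515 in KD. Each denervated library lay 1.88 to 1.99 times above its sham library, at 157 and 313 CPM in WT and 164 and 308 in Fgf21KO muscle. The log2 fold change of 0.95 (SE 0.0710, adjusted p 6.69e-10) fell just short of the 2-fold limit, and reached 1.27 by total counts alone. Kif5a, a heavy chain best known from neurons, had 13, 87, 19 and 86 counts. It rose by 2.17 on the log2 scale (SE 0.344, adjusted p 2.11e-05), and its ratios were 2.12 (1.41 to 3.22) and 2.01 (1.39 to 2.92). It nevertheless made up at most 0.896% of the reads of the 2 heavy chains. None of the 11 neuron markers examined (neurofilaments and synaptic genes among them) is in the table, so the part of nerve RNA in Kif5a was not tested.

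Klc1 had 1976 counts in WS and 4707 in WD, and 2061 in KS and 3999 in KD and rose by 0.83 (SE 0.0739, adjusted p 8.95e-09). Klc2 had 2387, 2944, 2931 and 2624 counts and fell by 0.20 (adjusted p 0.0250), a direction that turned under total counts alone (0.12, adjusted p 0.151). Klc4 had 570, 782, 725 and 743 counts and a log2 fold change of -0.03. Klc1 thus went from 40.1% of light chain reads (38.7 to 41.4) to 55.8% (54.8 to 56.9) in WT, and from 36.1% to 54.3% in Fgf21KO muscle, while Klc2 went from 48.4% to 34.9% and from 51.3% to 35.6%. Per transcript length Klc1 was already slightly above Klc2 in WS (33.9 and 32.4 RPKM) and below it in KS (27.7 and 31.1). Klc1 was the higher of the 2 in both denervated libraries (57.6 and 28.5 in WD, 51.6 and 26.8 in KD). The summed heavy chain level had log2 ratios of 1.0 and 0.92, and the summed light chain level 0.33 and 0.36.

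The kinesin-2 motors, which drive transport in cilia and of vesicles, moved less. Kif3a and Kif3b, the paired heavy chains, rose by 0.54 (adjusted p 0.0014) and 0.50 (adjusted p 0.00828). Kif3a lay at 9.41 CPM in WS and 14.0 in WD, and 10.2 in KS and 14.5 in KD. Kif3b lay at 9.02, 10.8, 6.97 and 11.7 CPM, with ratios of 0.26 in WT and 0.74 in Fgf21KO muscle. Kif3c, the third heavy chain, was the highest of them at 9.15 to 12.4 RPKM and fell by 0.35 (adjusted p 0.000892), but it was at -0.03 (adjusted p 0.771) by total counts alone.

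Kinesin-3 includes Kif1c, the motor with the highest level in every library. Kif1c had 35170 counts in WS and 34172 in WD, and 40434 in KS and 30139 in KD and fell by 0.51 (SE 0.0752, adjusted p 1.01e-05). Kif1b had 17595, 16698, 22872 and 14726 counts and fell by 0.63 (adjusted p 4.37e-07). In CPM both were lower in each denervated library than in each sham library. Kif13b, a motor that carries membrane lipid and receptor cargo, went the other way. It had 488, 1574, 566 and 1623 counts and rose by 1.33 (SE 0.0942, adjusted p 2.95e-10), with ratios of 1.20 (1.06 to 1.35) and 1.46 (1.32 to 1.60). Its nearest relative Kif13a did not pass (-0.02, adjusted p 0.814), and the endosome motor Kif16b fell by 0.32, with no difference left by total counts alone (0.00, adjusted p 0.958). As Kif13b gave at most 3.02% of kinesin-3 reads, the summed level followed Kif1c and Kif1b, with log2 ratios of -0.47 and -0.45 (-0.19 and -0.10 by total counts alone).

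The kinesins that work on the mitotic spindle were near the floor of the libraries, where 3 counts correspond to 0.092 to 0.130 CPM. Of 11 mitotic kinesins listed, 5 are in the table, and 1 was a DEG (20%, beside 13.0% of all genes). Kif20a, a motor of the dividing cell's midzone, had 11 counts in WS and 57 in WD, and 14 in KS and 36 in KD and rose by 1.58 (SE 0.404, adjusted p 0.00254). Kif22, which moves chromosomes, had 6, 26, 9 and 16 counts. Its log2 fold change was 1.18 with an adjusted p of 0.0592, and its interval in Fgf21KO muscle, -0.49 to 2.13, included 0. Kif11, the spindle motor Eg5, had 19, 39, 32 and 59 counts (0.70, adjusted p 0.0993), Kif23 had 10, 23, 10 and 12 (0.48, adjusted p 0.436), and Kif18a was at 0.04. Summed, the 5 lay at 3.44 CPM in WS and 6.19 in WD, and 4.01 in KS and 5.60 in KD.

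Markers of dividing cells were examined beside them, and their directions were mixed. Of 14 listed, 8 are in the table, whose smallest value is 1 count, so that no gene of it is at 0. Their sum was 10.5 CPM in WS and 24.2 in WD, and 9.66 in KS and 27.6 in KD. Rrm2, a subunit of ribonucleotide reductase, rose by 3.83 and the checkpoint gene Bub1b by 2.37, whereas the spindle kinase Aurka fell by 1.39. Rrm2 alone went from 1.33 CPM in WS to 13.5 in WD and from 1.01 in KS to 19.4 in KD, and the other 7 markers together were at 9.2 and 10.7, and at 8.65 and 8.18 CPM. Macrophage markers were higher, with 5 of 11 DEGs (45.5%, beside 6.80% of all genes higher). By total counts alone 10 of the 11 were DEGs, beside 13.0% of all genes higher. Their sums were 35.6, 78.2, 38.1 and 78.0 CPM in WS, WD, KS and KD. Cd68 (3.37) and Adgre1 (1.32) rose most among the macrophage DEGs, and the 2 lowest of these DEGs were Mrc1 (1.13) and Itgam (1.07). Itgam had 36 counts in WS and 51 in WD, and 11 in KS and 65 in KD. Its ratio was 0.01 in WT and 2.31 in Fgf21KO muscle. Endothelial markers were lower, with 5 of 10 DEGs (50%, beside 6.15% of all genes lower). By total counts alone there were 0, beside 2.48% of all genes lower. Flt1 (-1.22) and Cdh5 (-1.16) were the lowest of the 5, and Kdr (-1.07) and Vwf (-1.02) the highest. The endothelial sums were 711, 319, 588 and 316 CPM in WS, WD, KS and KD. Of 6 Schwann cell markers in the table Ncam1 rose by 3.55 and Pmp22 fell by 2.25. Of 10 markers of fibro-adipogenic progenitors, the connective tissue cells of muscle, none was a DEG. By adjusted p alone 6 of these 10 fell, beside 26.6% of all genes. Only 3 of the 12 fibre markers listed are in the table, and all 3 fell, by less than 2-fold. The absent ones include the fibre genes Acta1 and Ckm, so absence from the table does not show that a gene was not expressed. None of the 11 satellite cell and regenerating fibre markers listed is in the table. In bulk muscle a change in the number of cells of a type and a change in RNA per cell cannot be told apart. The part of these cells in the tubulin and kinesin results was not tested.

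The remaining kinesins were mixed. Kif26a, an atypical kinesin without motor activity, had 293 counts in WS and 173 in WD, and 274 in KS and 127 in KD and fell by 1.21 (SE 0.159, adjusted p 2.07e-06). Its ratios were -1.24 and -1.15, and by total counts alone the fall was 0.89, under the 2-fold limit. Kif26b, its close relative, had 52, 82, 29 and 49 counts and did not pass (0.40, adjusted p 0.295). Kif21a, a kinesin-4 that restrains microtubule growth, rose by 0.29 (adjusted p 0.0054), while Kif21b, with 14 to 28 counts, did not pass. Kif2a, a kinesin-13 that takes microtubule ends apart and the highest of its group at 2.83 to 3.57 RPKM, was at -0.08 (adjusted p 0.609). Neither of the name matches passed, with Kif1bp at 0.14 (adjusted p 0.195) and Tubb4b-ps1 at 0.00 (adjusted p 0.998).

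For the effect of Fgf21 loss, KS was compared with WS and KD with WD. No member was a DEG for genotype in the additive model, beside 0.168% of all genes tested, and none passed the adjusted p alone, beside 0.573%. At an unadjusted p below 0.05 there were 3, Klc1, Kif26a and Kif26b. DESeq2's Wald test likewise gave 0 DEGs among the members and 1 at an unadjusted p below 0.05. The share of all genes at that unadjusted limit was not counted, so these counts show nothing particular to the members. By the ratio alone 1 member differed 2-fold or more in sham muscle, beside 2.04% of all genes, and 1 in denervated muscle, beside 1.56%. Kif26b had a ratio of -1.14 (-1.90 to -0.51) in KS vs WS, from 52 and 29 counts, and -0.64 (-1.21 to -0.14) in KD vs WD. Tubb4a had a ratio of 1.68 (0.73 to 3.42) in KD vs WD, from 7 and 26 counts, and -0.15 (-1.07 to 0.76) in KS vs WS. The counting interval left out 0 in 11 members in sham muscle (28.2%, beside 34.3% of all genes) and in 16 in denervated muscle (41.0%, beside 28.3%). Such shares depend on how many reads the genes have, since the intervals narrow as reads increase. Klc1 was at -0.29 (-0.38 to -0.20) in sham and -0.16 (-0.22 to -0.10) in denervated muscle, Kif26a at -0.45 and -0.36, and Tubb6 at -0.27 (-0.52 to -0.03) and 0.29 (0.20 to 0.37). The median over the members was -0.037 and -0.013, beside 0.000 and -0.005 over all genes.

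**Figure D4:**
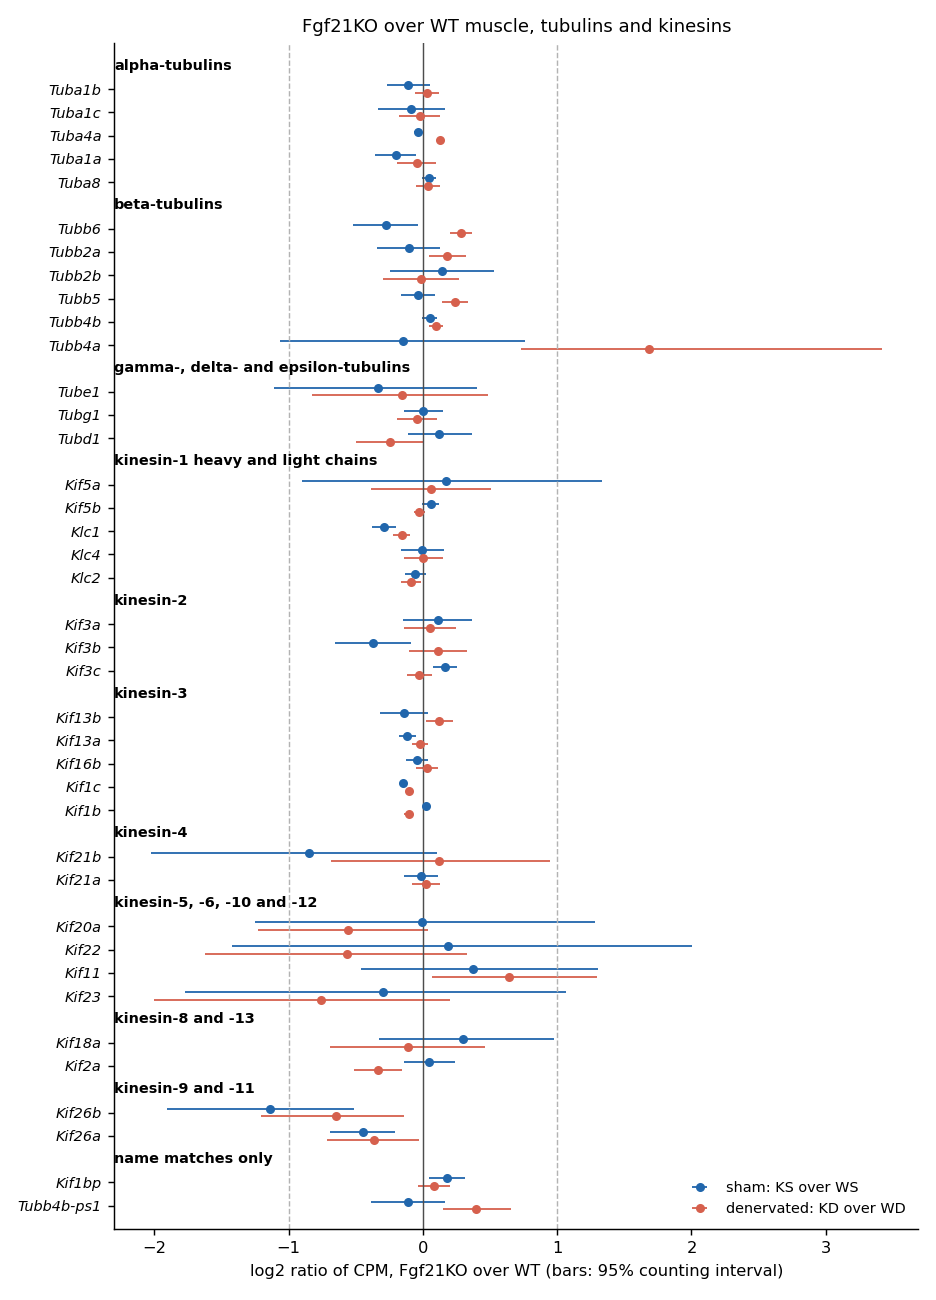
Log2 ratio of CPM, Fgf21KO over WT, for each member in sham (KS over WS) and denervated muscle (KD over WD), with 95% counting intervals as bars and dashed lines at 2-fold. Points past a dashed line are Kif26b in sham (-1.14) and Tubb4a in denervated muscle (1.68), both from few reads.

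The size of the denervation response was then set side by side in the genotypes. The ratios KD vs KS and WD vs WS had opposite signs in 7 of 39 members (17.9%, beside 17.1% of all genes tested). Their difference had a counting interval without 0 in 16 (41.0%, beside 29.4%). These intervals narrow as reads increase, so a gene with many reads leaves out 0 at a small difference, as Kif1c did at 0.047 (0.017 to 0.077). The difference was at least 1 in Tubb4a only (1.83, 0.39 to 3.27), beside 4.11% of all genes. Each of these differences compares 4 single libraries, and a model with an interaction term, which would test them, leaves no residual degree of freedom.

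Genes that work with the tubulins and motors were examined as 7 lists. Tubulin folding factors, which make and assemble the alpha-beta pair, had 15 of 23 higher and 2 lower by adjusted p, beside 26.4% and 26.6% of all genes, but 1 DEG, the chaperonin subunit Cct3 (1.15, from 1832 and 2481 counts in sham to 5854 and 5540 in denervated muscle). Their median log2 fold change was 0.43, beside 0.01 over all genes. Of 28 microtubule-associated proteins 14 rose and 8 fell, and 4 were DEGs (14.3%, beside 13.0% of all genes). Map1b, a stabiliser of growing axons, had 297 counts in WS and 3243 in WD, and 239 in KS and 3468 in KD and rose by 3.37, and Map1lc3a, known mostly for autophagy, rose by 1.60. Map2 fell by 1.25 and Clip2 by 1.17, both under 2-fold by total counts alone.

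Of 21 enzymes that modify or sever tubulin 8 rose and 1 fell. The 4 DEGs (19%, beside 13.0% of all genes) were all higher. They were the glutamylase subunit Ttll1 (1.26), its relative Ttll12 (1.24), the tail-trimming enzyme Agbl3 (1.44) and Fignl1 (1.64), the last with 4 to 21 counts. Cargo adaptors of kinesin went the other way in their DEGs. Of 15 tested, 5 rose and 8 fell, and 3 were DEGs (20%, beside 13.0% of all genes). These were the scaffold Mapk8ip1 (-1.11) and the mitochondrial adaptors Rhot2 (-1.09) and Trak1 (-1.0). None of them stayed past 2-fold by total counts alone, where 2 other adaptors were higher. Trak1 had 9839 counts in WS and 7421 in WD, and 12299 in KS and 5916 in KD.

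Dynein and dynactin, the motor complex that runs opposite to most kinesins, gave no DEG among 26 genes. By adjusted p 12 were higher and 4 lower, beside 26.4% and 26.6% of all genes. The 12 genes of the gamma-tubulin ring complex gave no DEG, with 2 higher and 4 lower, and the 5 other kinesin genes none, with 1 higher and 2 lower. By total counts alone the dynein list became 21 higher and 0 lower and the ring complex 4 higher and 1 lower. All genes moved as well, to 6114 higher and 1674 lower of 13084. Under that scaling 3 dynein list genes and 1 ring complex gene were DEGs, beside 13.0% of all genes higher. Without the mitochondrially encoded genes 2 of the dynein list were DEGs, beside 9.19% higher. No gene of the 7 lists was a DEG for genotype.

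**Figure D5:**
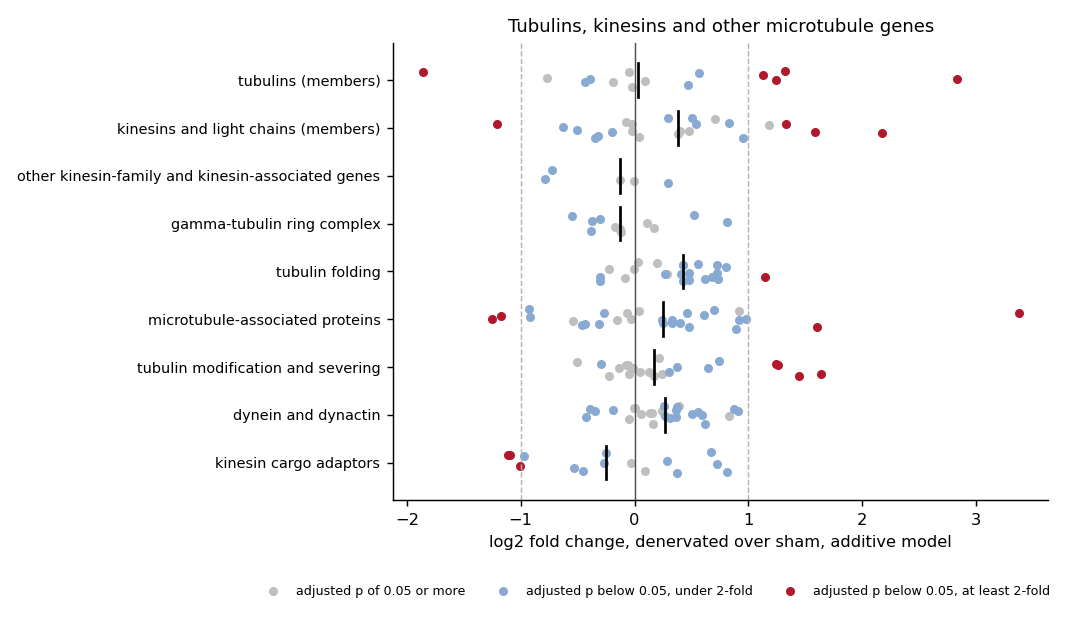
Log2 fold change for denervation in the additive model for the tubulins, the kinesins and 7 lists of genes that work with them, with 1 point per gene, a bar at the median of each list and dashed lines at 2-fold. Red points are DEGs, and they lie on both sides among the tubulins (-1.86 to 2.83), only to the right among the modifying enzymes and only to the left among the cargo adaptors, where total counts alone gave 2 higher and 0 lower.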

How the data were processed

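RNA-seq of 4 pooled TA libraries was used, 1 per group. The authors deposited raw read counts per gene, and a second table of log2 values. Each entry is log2(c f + 1), with c the count and f a factor of the library (largest relative deviation 4.4e-07 above 100 counts), although that table is named for FPKM. The kit was stranded, and the submitters' processing notes name the build GRCm39 and FastQC. The aligner and counter are not given in the sources used here. Total counts over the 13825 genes were 25249879 (WS), 29150147 (WD), 34141303 (KS) and 27740920 (KD), of which 13 mitochondrially encoded genes took 19.4% to 30.4%.

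Counts were scaled by TMM over the whole table (factors 0.922, 1.12, 0.870 and 1.11) and tested with edgeR 4.0.16 in R 4.3.3 for genes averaging at least 10 counts. Ratios used a prior count of 2. The common biological coefficient of variation was 0.068. Each SE was derived from the test, as the absolute log2 fold change divided by the square root of the quasi-likelihood F statistic. Pairwise intervals are exact and conditional on the sum of both counts. Intervals and floors cover counting error only, and p-values measure the spread between these libraries after the additive fit. Lengths and shared stretches came from the longest GENCODE M21 transcript of any kind (GRCm38, a different build from that of the counts), and promoter windows from RefSeq. The scripts were tested on simulated data.

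The members and lists were chosen with earlier results of these data known. Named are all tubulins and all kinesin-1 and kinesin-2 members, other members past 2-fold in a comparison, the highest member of each family, and the 2 DEGs at either end of each list. Kif1b, Kif13a, Kif16b, Kif11, Kif23, Kif18a, Kif21b, Kif1bp, Tubb4b-ps1 and the fibre markers were named after their values were seen.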

Additional observations from a re-analysis of the deposited data

Results flagged for a closer look

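Tuba4a, the most abundant member, is listed because its ratio of denervation over sham pointed in opposite directions in the genotypes. It was -0.11 (counting interval -0.14 to -0.08) in WT and 0.06 (0.03 to 0.08) in Fgf21KO muscle, a difference of 0.168. With 1 library per group the difference was not tested. Both ratios are far under 2-fold, and by total counts alone both were above 0 (0.17 and 0.41).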

How the results depend on the processing

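No paired analysis was possible because every group is a single pool without numbered replicates, and for that reason no replicate could be left out either. The settings tried were size factors from DESeq2, total counts with and without the mitochondrially encoded genes, no filter on low counts, a minimum mean of 50 counts, a smaller and a larger prior count, the second deposited table, DESeq2's Wald test and no fold limit. No DEG changed sign under them, but Klc2, lower by adjusted p alone, was at 0.12 by total counts. Total counts alone moved the median log2 ratio of the members to 0.437 (WD vs WS) and 0.516 (KD vs KS), as they moved that of all genes to 0.29 and 0.36 (0.15 and 0.17 without the mitochondrially encoded genes). With a minimum mean of 50 counts 0 members were 2-fold apart between KD and WD. With the second deposited table there were 0 between KS and WS and also 0 between KD and WD. Without the fold limit 23 members passed for denervation. The number of DEGs for denervation was otherwise 7 to 12. The median of KD vs WD, -0.013, was at 0.002 by total counts without the mitochondrially encoded genes and at 0.003 with a minimum mean of 50 counts. By total counts Kif5b (1.27), Klc1 (1.15), Kif11 (1.02) and Kif22 (1.49) became DEGs and Kif26a (-0.89) was lost. Kif22 also became one with no filter and without the mitochondrially encoded genes (1.33), as did Kif5b in the latter, and Kif20a (1.58) was lost with DESeq2's Wald test. With near-identical copies counted as 1 gene, an alternative chosen after seeing the data, 7 of 35 members were DEGs, with the Tuba1 sum at 0.78 and the Tubb2 sum at 1.08. The cause of these moves was not tested. Depth limits the mitotic kinesins and Tubb4a, with 6 to 59 counts per library, and Kif21b and Tube1, with 14 to 45.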
